A study of Homo sapiens with 16 samples.

Results

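The nuclear receptor genes encode the family of transcription factors that AIB1, the coactivator encoded by NCOA3, is known to bind. This account gives, for 46 listed human nuclear receptor genes out of 19825 protein-coding genes, whether chromatin bound by AIB1 lay near them. The members were taken by name and not by any measured value, though earlier results of these data were known then. They were judged on the chromosomes that hold clusters, 1 to 19 and X, where 44 of the 46 lie together with 18617 protein-coding genes. HNF4A on chromosome 20 and PPARA on chromosome 22 could not be judged, because no list has a cluster on chromosomes 20 to 22.

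AIB1 was mapped by chromatin immunoprecipitation and sequencing (ChIP-seq) in MCF10A, a non-tumorigenic human mammary epithelial line, in MCFDCIS, a line derived from it and used as a model of ductal carcinoma in situ, and in a D4 counterpart of each, for which the series title names the AIB1 isoform AIB1D4. All lines grew in medium with horse serum, EGF, hydrocortisone (a ligand of the glucocorticoid receptor), cholera toxin and insulin. Each of the 4 groups has 3 ChIP samples and 1 input sample, and the labels do not state how the D4 lines were made, whether a D4 line is 1 clone or whether the 3 samples came from separate cultures. The authors deposited a single list of bound regions per group, called clusters here, with no value per replicate. No value below therefore has a replicate error, and no test between groups could be made. File names and sample descriptions give opposite cell lines for every list but the same parental or D4 status, so the lists are called MCF10A-named and MCFDCIS-named, and none is tied to a line. The parental lists held 490 (MCF10A-named) and 651 (MCFDCIS-named) clusters and the D4 lists 138 and 99. Sequencing depth is unknown, and the lists report binding and not expression, so neither cell identity nor the level of any receptor was checked.

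Nuclear receptors bind DNA alone or in pairs, and most switch genes on when a small ligand such as a steroid, a retinoid, vitamin D, thyroid hormone or a lipid fits their ligand-binding domain. That domain then offers a groove to short leucine-rich motifs of p160 coactivators, of which AIB1 is one, and AIB1 in turn recruits histone acetyltransferases. Mammary epithelium is a known target tissue of estrogen, progesterone and glucocorticoid through such receptors, and MCF10A is widely described as lacking estrogen receptor protein.

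AIB1 clusters lay within 100 kb of the canonical transcription start site (TSS) of 4 nuclear receptor genes, NR3C1, RXRA, ESR1 and NR0B2, and of none of the other 40 judged. A stretch of sequence at each of their 5 clusters is shown here, because these are the only clusters within that distance of any judged member. For NR3C1 it is a part of the cluster. For the others it is up to 200 bp around the centre of a cluster 10 or 60 bp wide, so most of it lies outside the cluster. Annotated exons were left out, and the positions given are those of the stretch. Each stretch was read from the plus strand of GRCh37 (hg19), 5′ to 3′, and capitals mark matches to TGANTCA (AP-1), GGAATG (the TEAD factors, a motif chosen after the sequences were seen), AGGTCA (the core hexamer of nuclear receptor sites) or the glucocorticoid response element (GRE, here GNACA and TGTNC with 3 bases between them), on either strand. Of the marked matches, only the first at NR0B2 lies inside its cluster.
RXRA first cluster, chr9:137263656-137263816: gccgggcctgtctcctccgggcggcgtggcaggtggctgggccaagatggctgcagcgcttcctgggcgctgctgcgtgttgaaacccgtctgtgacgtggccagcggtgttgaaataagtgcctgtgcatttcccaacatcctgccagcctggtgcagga
RXRA second cluster, chr9:137272010-137272130: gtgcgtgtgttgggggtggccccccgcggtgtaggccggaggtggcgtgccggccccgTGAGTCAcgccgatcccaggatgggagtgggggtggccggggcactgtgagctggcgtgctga
NR3C1 cluster, chr5:142784889-142785060: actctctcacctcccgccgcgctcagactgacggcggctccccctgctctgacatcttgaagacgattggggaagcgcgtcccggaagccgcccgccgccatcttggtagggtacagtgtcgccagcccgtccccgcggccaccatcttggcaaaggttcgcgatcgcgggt
ESR1 cluster, chr6:152222306-152222505: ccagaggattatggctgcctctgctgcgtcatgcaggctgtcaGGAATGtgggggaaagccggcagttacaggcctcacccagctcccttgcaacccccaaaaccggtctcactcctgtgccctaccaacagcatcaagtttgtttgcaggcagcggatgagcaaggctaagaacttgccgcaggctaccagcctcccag
NR0B2 cluster, chr1:27325981-27326180: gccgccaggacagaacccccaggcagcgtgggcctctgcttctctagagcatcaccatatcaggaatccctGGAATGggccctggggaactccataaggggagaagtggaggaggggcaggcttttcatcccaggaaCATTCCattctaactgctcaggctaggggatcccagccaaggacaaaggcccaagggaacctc

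The 4 genes near a cluster were not the same in every list. In the MCF10A-named parental list 3 of 44 members had a cluster within 100 kb (6.82%, exact 95% interval 1.43 to 18.7), RXRA, ESR1 and NR0B2, against 4.01% of all protein-coding genes. In the MCFDCIS-named parental list 4 of 44 did (9.09%, 2.53 to 21.7), the same 3 and NR3C1, against 6.18% of all genes. The MCF10A-named D4 list had 0 of 44 (0 to 8.04%), against 0.983% of all genes, and the MCFDCIS-named D4 list 1 of 44, RXRA (2.27%, 0.0575 to 12.0), against 1.53%. The share of all genes lay inside the interval of the members in every list. If clusters were placed evenly along their own chromosomes, 1.78 (MCF10A-named) and 2.48 (MCFDCIS-named) of the 44 would have one within 100 kb in parental cells, and 0.495 and 0.423 in D4 cells. Over the 4 lists together 4 of 44 members (9.09%) had a cluster, against 6.78% of all genes. The intervals cover the number of genes only and treat the 44 members as independent draws. The members are chosen genes, and some, such as THRA and NR1D1, are neighbours. With 0 to 4 members counted the intervals are wide, so a share inside them decides nothing.

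**Figure D1:**
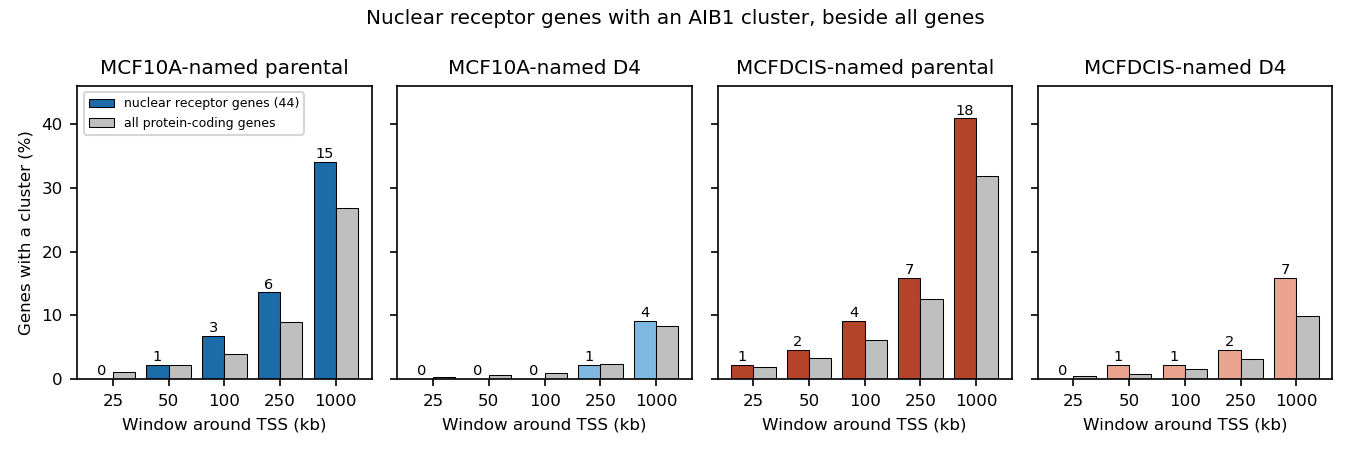
Share of genes with an AIB1 cluster (y axis, percent) by the window around the canonical TSS (x axis, kb) in each of the 4 lists. Coloured bars stand for the 44 nuclear receptor genes, with the number of genes above, and grey bars for all 18617 protein-coding genes. Within 100 kb the members counted 3, 0, 4 and 1 genes from the left panel to the right one.

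Most members were more than 1 Mb from the nearest cluster in every list. From the TSS of a member to the nearest cluster the median was 2.7 Mb in the MCF10A-named parental list, against 3.01 Mb over all genes, and 1.94 Mb in the MCFDCIS-named parental list, against 2.38 Mb. In the D4 lists it was 18.3 Mb against 15.3 Mb (MCF10A-named) and 10.3 Mb against 9.82 Mb (MCFDCIS-named), over genes whose chromosome held a cluster. The MCF10A-named D4 list had no cluster on the chromosome of NR0B1, and the MCFDCIS-named D4 list none on those of NR0B1, NR1H3, ESRRA, PGR and NR3C2. Within 1 Mb the members counted 15 and 18 of 44 in the parental lists (34.1% and 40.9%, against 26.8% and 31.9% of all genes) and 4 and 7 in the D4 lists (9.09% and 15.9%, against 8.39% and 9.92%).

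**Figure D2:**
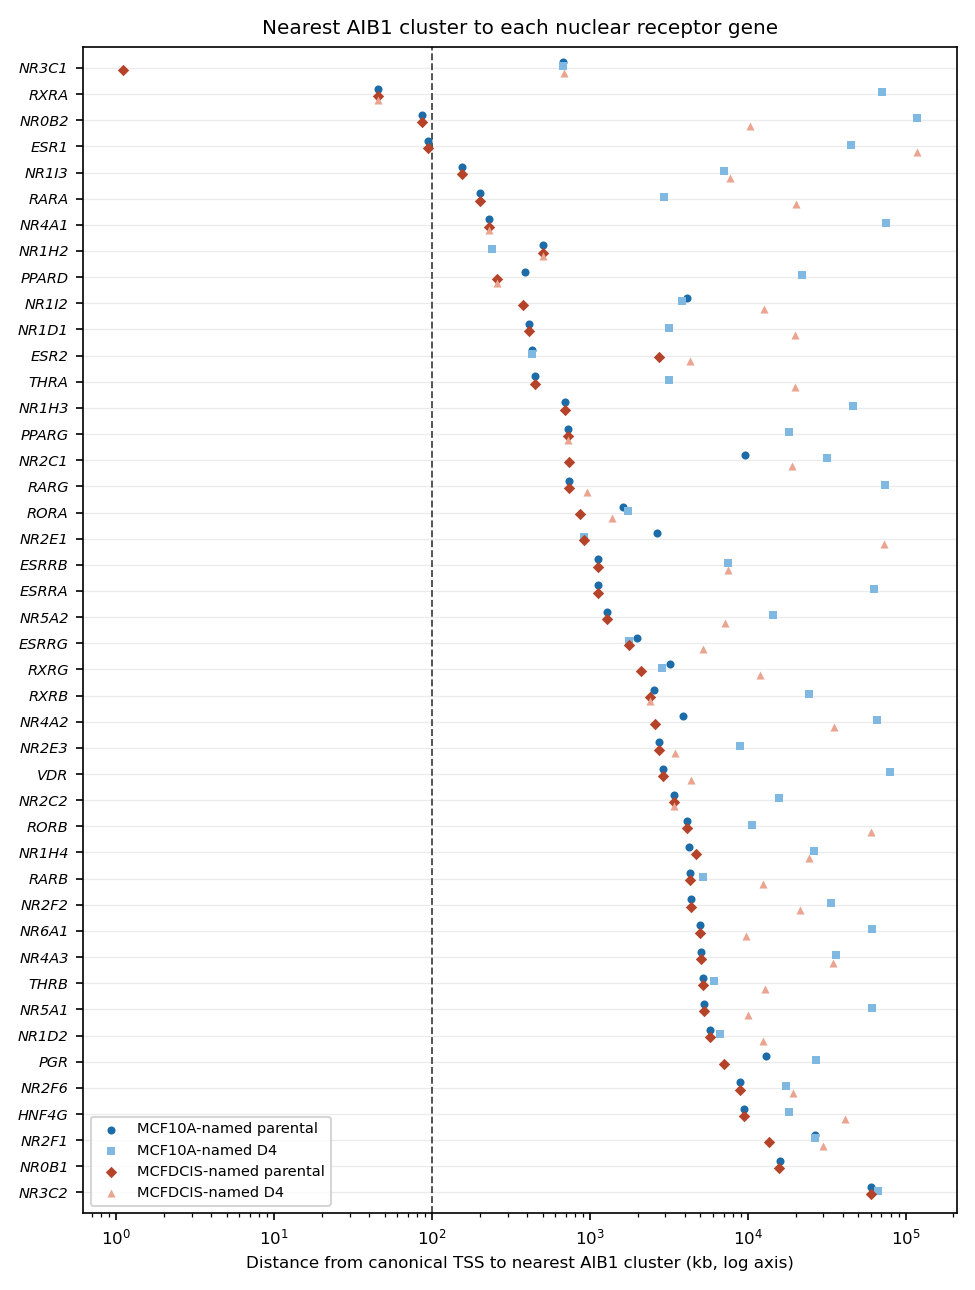
Distance from the canonical TSS of each of the 44 nuclear receptor genes (y axis, ordered by the shortest distance) to the nearest AIB1 cluster (x axis, kb, log scale) in each of the 4 lists, 1 marker per list. The dashed line is at 100 kb: NR3C1 at 1.1 kb, RXRA at 45.5 kb, NR0B2 at 85.6 kb and ESR1 at 93.6 kb lie to its left, and a list with no cluster on the chromosome has no marker.

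Among the receptors for steroid hormones, NR3C1 had the closest cluster of any judged member. NR3C1 encodes the glucocorticoid receptor. Its cluster, chr5:142784351-142785060, is 710 bp wide, begins 1.1 kb upstream of the canonical TSS and was in the MCFDCIS-named parental list only. It covers the start of an alternative first exon (transcript ENST00000514699) and begins 119, 242, 657 and 904 bp from 4 further annotated starts of the gene. NR3C1 was the only protein-coding gene with a canonical TSS within 100 kb of it. Within the 651 clusters of its list the cluster ranked 463rd by the authors' score (12.7, where the list median is 20.1), which the files leave undefined. In the other lists the nearest cluster to NR3C1 was outside the window, at 677 kb in both MCF10A-named lists and 686 kb in the MCFDCIS-named D4 list. These distances are below the medians over all genes. Of the genes whose chromosome held a cluster in the list, 20.4% (MCF10A-named parental), 6.64% (MCF10A-named D4) and 9.71% (MCFDCIS-named D4) had a nearer one. The MCFDCIS-named parental list also had clusters 191 kb upstream and 203 kb downstream of this TSS, the latter in intron 20 of ARHGAP26, and neither was in another list.

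ESR1 encodes estrogen receptor alpha, the receptor through which AIB1 is best known in breast cancer. Its cluster, chr6:152222401-152222410, lies 93.6 kb downstream of the canonical TSS in intron 3 of the gene, and 20.6 kb from the nearest annotated start of any ESR1 transcript. It was in both parental lists and in neither D4 list. By the authors' score it ranked 407th of 490 in the MCF10A-named parental list (8.1) and 178th of 651 in the MCFDCIS-named one (33.8). In the D4 lists the nearest cluster to ESR1 was at 44600 kb (MCF10A-named) and 117000 kb (MCFDCIS-named). ESR2, which encodes estrogen receptor beta, had its nearest cluster at 430 kb in both MCF10A-named lists, and at 2730 kb (parental) and 4280 kb (D4) in the MCFDCIS-named ones. PGR, the progesterone receptor gene, had its nearest cluster of any list at 7030 kb, and NR3C2, which encodes the mineralocorticoid receptor, had its nearest at 59800 kb in both parental lists.

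RXRA encodes retinoid X receptor alpha, the shared partner with which many other nuclear receptors pair. It was the only member with more than 1 cluster within 100 kb and the only one near a cluster in a D4 list. Both of its clusters lie in intron 1 of the canonical transcript. The first, chr9:137263751-137263760, is 45.5 kb downstream of the canonical TSS and 57 bp from the start of a shorter annotated transcript (ENST00000356384). It was in both parental lists and in the MCFDCIS-named D4 list, with ranks of 48 of 490 (MCF10A-named parental, score 33.7), 521 of 651 (MCFDCIS-named parental, 10.5) and 38 of 99 (MCFDCIS-named D4, 10.0). The second, chr9:137272001-137272060, is 53.7 kb downstream, overlaps the end of a first exon whose TSS is 0.86 kb away (ENST00000672570) and lies 0.744 kb from the microRNA gene MIR4669. It was in both parental lists, ranked 211 of 490 (13.4) and 148 of 651 (38.5), and in neither D4 list. The first cluster thus ranked higher than the second in one parental list and lower in the other. The remaining receptors of this group, RXRB and RXRG, had their nearest parental clusters at 2100 to 3190 kb.

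NR0B2, also called SHP, encodes a receptor that lacks a DNA-binding domain and represses other receptors, mostly in liver. Its cluster, chr1:27326051-27326110, is 85.6 kb upstream and lies in intron 1 of TRNP1, 5.87 kb from that gene's TSS. The TSSs of 4 other genes, TRNP1, TENT5B, KDF1 and NUDC, are closer to the cluster than that of NR0B2. It was in both parental lists, ranked 132 of 490 (18.4) and 212 of 651 (29.6), and in neither D4 list. NR0B1, the related gene on chromosome X, had its nearest cluster at 15900 kb (MCF10A-named parental) and 15700 kb (MCFDCIS-named parental).

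**Figure D3:**
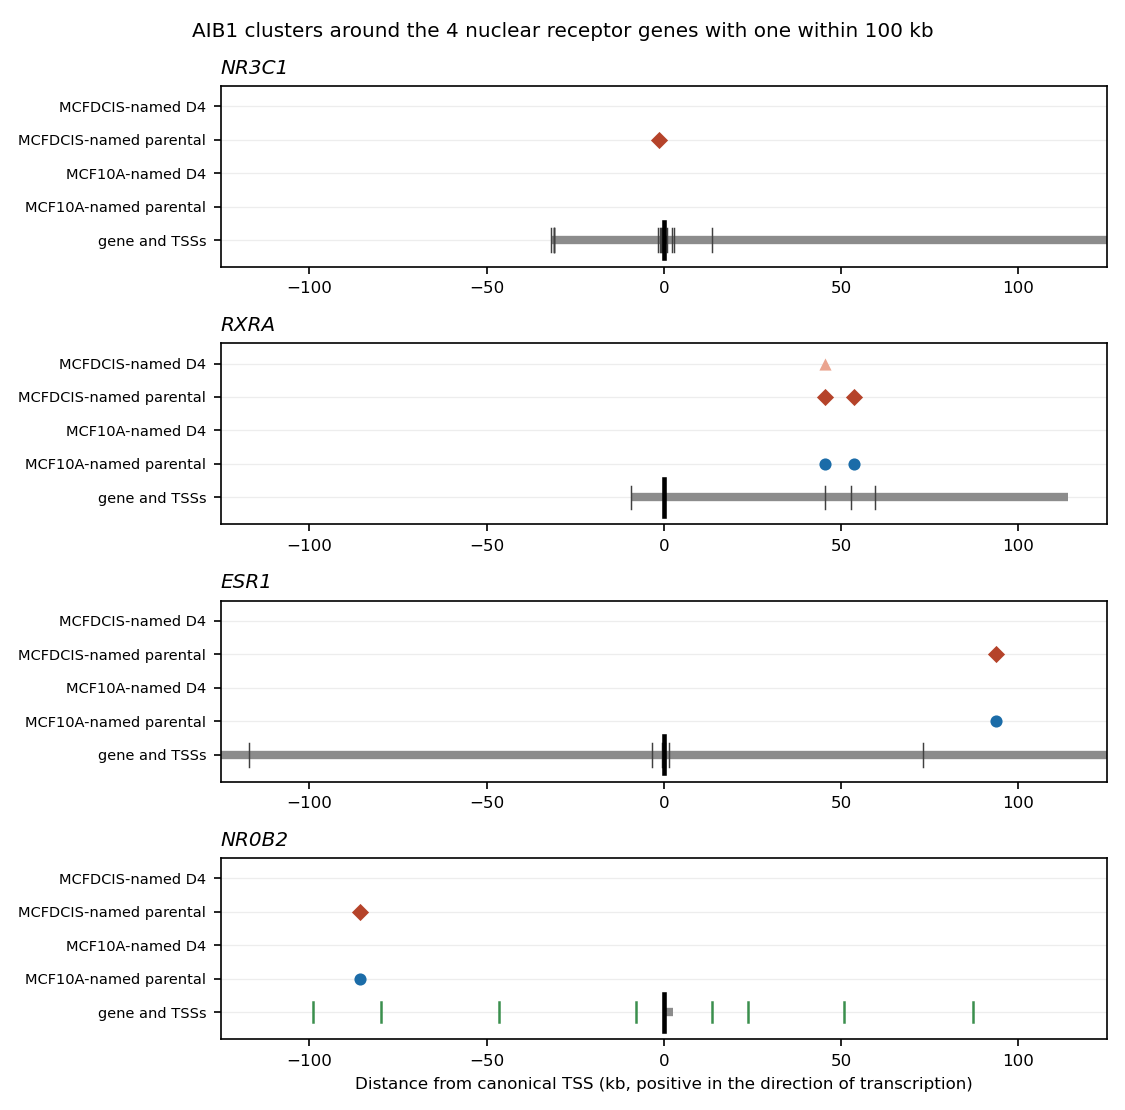
Positions of AIB1 clusters (markers, 1 row per list) relative to the canonical TSS (thick black tick at 0) of NR3C1, RXRA, ESR1 and NR0B2, with distance in kb on the x axis, positive in the direction of transcription. The grey bar is the gene over all its annotated transcripts, thin black ticks are its other annotated TSSs and green ticks are canonical TSSs of other protein-coding genes: the RXRA clusters sit beside internal TSSs at 45.5 and 53.7 kb, and the NR0B2 cluster lies among other genes.

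Of the members that pair with RXR, 0 of 6 that respond to vitamins or thyroid hormone and 0 of 7 judged that respond to lipids, bile acids or xenobiotics had a cluster within 100 kb in any list, which is near the background where 6.78% of all genes had one. RARA, RARB and RARG (retinoic acid receptors), VDR (the vitamin D receptor) and THRA and THRB (thyroid hormone receptors) had their nearest parental clusters at 201 to 5200 kb. The closest of these was to RARA, at 201 kb in both parental lists, where it ranked 12 of 490 and 154 of 651, but the TSSs of 9 other genes are closer to that cluster and the nearest is TNS4, at 8.73 kb. PPARD, which encodes a fatty acid receptor, lay 259 kb from a cluster of the MCFDCIS-named parental and D4 lists that is in intron 5 of FKBP5. PPARG, the receptor that drives fat cell formation, had its nearest cluster at 721 kb in 3 lists and at 18300 kb in the MCF10A-named D4 list. NR1I3, the xenobiotic receptor CAR, was the nearest member outside the window, at 154 kb in both parental lists, with its cluster in intron 1 of NECTIN4 and 20 genes closer to it. NR1H2, which encodes the sterol receptor LXR beta, was the only member whose nearest cluster of all was in the MCF10A-named D4 list alone, at 240 kb, against 500 kb in the other 3 lists, and 12 genes were closer to that cluster.

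The receptors that act in the circadian clock, and the orphan receptors other than NR0B2, also had no cluster within 100 kb. Several of them lay nearer to one than the parental medians over all genes, 3.01 and 2.38 Mb. NR1D1 and NR1D2 (the clock repressors REV-ERB alpha and beta) and RORA and RORB (activators at the same sites) had their nearest clusters at 410 to 5750 kb in the parental lists. The immediate early gene NR4A1 lay 229 kb from a cluster in intron 2 of the keratin gene KRT86 in both parental lists and the MCFDCIS-named D4 list, with 14 genes closer to that cluster. Of the genes whose chromosome held a cluster in the list, 8.3% (MCF10A-named parental), 11.8% (MCFDCIS-named parental) and 3.78% (MCFDCIS-named D4) had a nearer cluster than NR4A1. The related NR4A2 and NR4A3 had their nearest clusters of any list at 2560 and 5040 kb. The estrogen-related receptor genes ESRRA, ESRRB and ESRRG had parental distances of 1120 to 1980 kb, and the 11 judged genes of the remaining orphan receptors, which include NR2F1, NR2F2 and HNF4G, of 733 to 26400 kb.

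Parental and D4 lists were compared over the same members. In the MCF10A-named pair 0 of the 3 members near a parental cluster were also near a D4 cluster, against 118 of 746 genes (15.8%) over the genome. In the MCFDCIS-named pair 1 of 4 was, RXRA, against 256 of 1150 (22.3%). The members near a D4 cluster and no parental one numbered 0 of 44 under both names, where 65 (0.349%) and 28 (0.15%) of all genes were, so a count of 0 is near the background. By cluster, 0 of 4 near members in the MCF10A-named parental list (exact 95% interval 0 to 60.2%) and 1 of 5 in the MCFDCIS-named one (20%, 0.505 to 71.6) were in the D4 list, against 13.7% and 9.98% of all parental clusters. With 4 and 5 clusters these intervals span the genome-wide shares. The parental lists shared 676 genes, 90.6% of the 746 and 58.8% of the 1150, and among members they shared 3 of 3 and 3 of 4.

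No cluster came within 1 kb of a canonical member TSS in any list, where 0.183%, 0.0591%, 0.295% and 0.15% of all genes had one (MCF10A-named parental and D4, MCFDCIS-named parental and D4). Counting every annotated TSS, which was chosen after the data were seen, RXRA in both parental lists and the MCFDCIS-named D4 list and NR3C1 in the MCFDCIS-named parental list had one, against 0.365%, 0.569% and 0.204% of all genes in those lists, and 0 of 44 in the MCF10A-named D4 list, against 0.102%. Inside gene bodies there were clusters in RXRA and ESR1 in the MCF10A-named parental list (2 of 44, against 0.972% of all genes), in RXRA, ESR1 and NR3C1 in the MCFDCIS-named one (3 of 44, against 1.49%), and in RXRA in the MCFDCIS-named D4 list (1 of 44, against 0.365%), and in 0 of 44 in the MCF10A-named D4 list, against 0.333%. The members are long genes, with a median length of 50.9 kb against 27.9 kb over all genes, and the part of length in these counts was not tested.

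Sites were counted in the 5 clusters, which are too few to set their shares apart from those of all clusters. Within the central 500 bp the GRE was in 0 of 5, against 63 of all 897 different clusters (7.02%). Direct, inverted or everted repeats with spacers of 0 to 8 bp were also in 0 of 5, against 44 of 897 (4.91%). These repeats were built from a looser hexamer, RGKTCA (R is A or G, K is G or T), which includes AGGTCA. The site of NR4A receptors, AAAGGTCA, was also in 0 of 5, against 2.68% of all clusters. The hexamer AGGTCA itself was in 1 of 5, upstream of the ESR1 cluster's centre by 117 bp and outside the stretch shown above, against 30% of all clusters. The AP-1 site was in 1 of 5, the second RXRA cluster, 41 bp from its centre and just beyond its end, against 33.6%, and GGAATG was in 2 of 5, at ESR1 and NR0B2, against 35.1%. Motifs were counted on both strands, the hexamer also within AAAGGTCA and within repeats. No match says only that these letters are not in the window.

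Coregulators and genes of ligand handling were near parental clusters in shares close to or above those of all genes, counting genes known beforehand. FKBP5 and CYP1B1 were known to be near clusters when these lists were written, so the shares say nothing about the lists as a whole. Of 30 judged coregulators and chaperones, 2 were within 100 kb of a parental cluster under both line names (6.67%, set against the 4.01% and 6.18% of all genes). These were FKBP5, a chaperone of steroid receptors, and PPARGC1B, a coactivator of estrogen-related receptors and PPARs, whose cluster at chr5:149127151-149127210 is in its intron 1, 17.3 kb from its TSS. FKBP5 alone was near one in the MCFDCIS-named D4 list (3.33%, against 1.53% of all genes) and 0 of 30 in the MCF10A-named D4 list (against 0.983%). Of 41 judged genes of ligand synthesis, transport and breakdown, 2 and 3 were near parental clusters (4.88% and 7.32%), 1 near a MCF10A-named D4 cluster (2.44%, against 0.983%) and 0 near a MCFDCIS-named one (against 1.53%). CYP1B1, which hydroxylates estrogens and retinoids, had its nearest cluster at 0.808 kb in both parental lists and the MCF10A-named D4 list. DHRS3, which reduces retinaldehyde, had one at 22.1 kb in its own intron 3 in both parental lists, and HSD17B4, a peroxisomal steroid and fatty acid enzyme, one at 91.4 kb in the MCFDCIS-named parental list, inside TNFAIP8.

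The clock genes had the highest share of the 4 lists in both parental lists. Of 16 judged, 3 were near a cluster of the MCF10A-named parental list (18.8%, where all genes give 4.01%) and 4 near one of the MCFDCIS-named list (25%, where all genes give 6.18%). They were PER1, BHLHE40, a repressor of clock genes, at 7.58 kb, CSNK1D, the kinase that acts on PER proteins, at 23.8 kb, and in the MCFDCIS-named list DBP, a clock output factor, at 2.53 kb. PER1 and CSNK1D were also near a cluster in the MCFDCIS-named D4 list (2 of 16, 12.5%, against 1.53% of all genes), and 0 of 16 were in the MCF10A-named D4 list (against 0.983%). Of 27 judged textbook targets of lipid and vitamin receptors, 4 were near parental clusters of either name (14.8%, where all genes give 4.01% and 6.18%). The 4 were SREBF1, KLF9, ANGPTL4 and CD14. SREBF1 and CD14 were near a cluster in the MCF10A-named D4 list (7.41%, against 0.983%) and SREBF1 in the MCFDCIS-named one (3.7%, against 1.53%). The nearest cluster to CD14 was at 31.9 kb in both MCF10A-named lists, in intron 1 of WDR55, and at 29.8 kb in the MCFDCIS-named parental list. ANGPTL4, a lipase inhibitor induced by PPARs, had its cluster 8.28 kb away. SREBF1 lies in a region dense in clusters, and PER1, FKBP5, CYP1B1, KLF9 and SREBF1 were known to be near clusters when the lists were written, so these counts are a description.

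**Figure D4:**
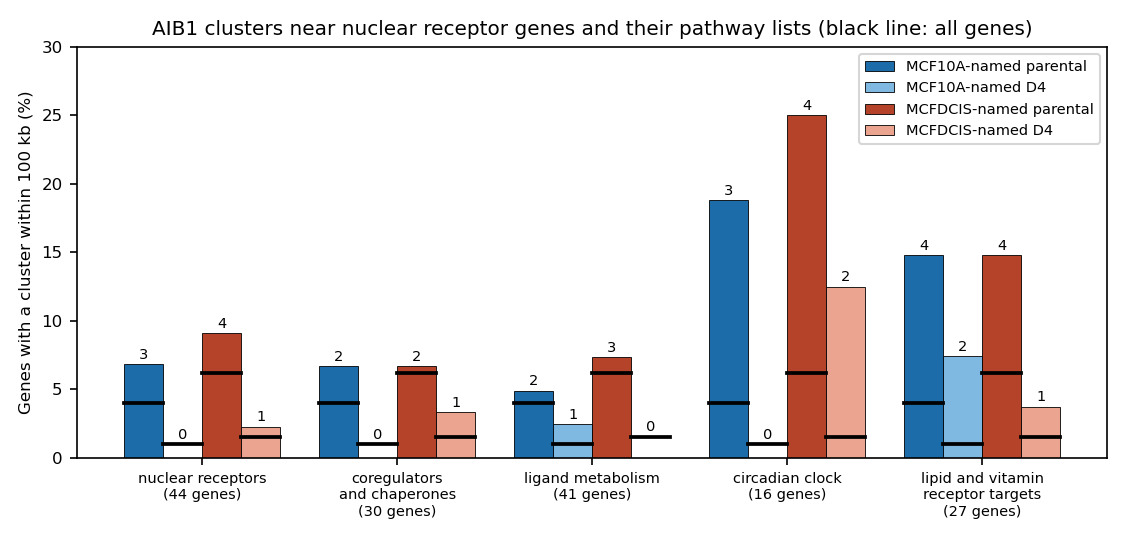
Share of genes with an AIB1 cluster within 100 kb (y axis, percent) among the 44 nuclear receptor genes and in 4 lists of genes that work with them (x axis), with 1 bar per cluster list and the number of genes above each bar. The black line across each bar is the share over all protein-coding genes: the nuclear receptors stand at 6.82%, 0%, 9.09% and 2.27%, and the clock genes at 18.8%, 0%, 25% and 12.5%.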

How the data were processed

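AIB1 ChIP-seq was deposited as 4 lists of clusters with positions and the authors' deposited score, which the files do not define. The build was hg19 (GRCh37), per the submitters' processing notes, and the samples were normalized to input, per the series' design text. The aligner and caller, and how samples were combined, are not stated in the sources used. Genes and TSSs came from GENCODE release 44 (lifted to GRCh37) and bases from the GRCh37 assembly. Distance ran from the canonical TSS to the nearer cluster edge, 0 if inside, and a gene was near a cluster within 100 kb. Overlap meant at least 1 bp. The number under even placement was computed in closed form over sequence without gaps. Intervals are exact (Clopper-Pearson) 95% intervals. No set test or placement test was made. Distances and motifs were tested on simulated data. The central 50 bases of each of the 5 clusters near members had 1 exact copy in the assembly. Members, lists and alternatives were chosen with earlier results of these data known. Named were all members with a cluster within 100 kb, those nearest outside, and pathway genes within 100 kb. By that rule a sequence needed a parental and D4 cluster, a canonical TSS within 1 kb, or a motif in its central 500 bp. The motifs of the rule were a GRE or a repeat of the looser hexamer RGKTCA. Of the 5 clusters, 1 met the rule. All 5 are shown, a choice made after the values were seen. No member had its nearest cluster between 100 and 150 kb, so the members beyond were chosen after their values were seen. Tables were made with pandas 2.3.3 and numpy 2.4.6 under Python 3.11.15, intervals with SciPy 1.17.1 and plots with matplotlib 3.10.9.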

Additional observations from a re-analysis of the deposited data

How the results depend on the processing

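The window, the width of clusters and the score moved several counts by over 1.5 times. Members near a cluster numbered 0, 0, 1 and 0 with a 25 kb window, 1, 0, 2 and 1 with 50 kb and 6, 1, 7 and 2 with 250 kb (MCF10A-named parental and D4, MCFDCIS-named parental and D4), where all genes gave 1.12%, 0.322%, 1.84% and 0.505%, then 2.18%, 0.596%, 3.38% and 0.843%, then 9%, 2.4%, 12.5% and 3.11%. Clusters near members numbered 0, 0, 1 and 0, then 1, 0, 2 and 1, then 8, 1, 12 and 2 in the same order. Without clusters of 10 bp the clusters near members numbered 2 and 3 in the parental lists, and 0 members and 0 clusters were left in the MCFDCIS-named D4 list. With clusters at or above the median score the MCFDCIS-named parental list had 3 clusters near members, and the median distance in the MCF10A-named parental list was 4.17 Mb. Members near both a parental and a D4 cluster of the MCFDCIS name numbered 0 with 25 kb and 2 with 250 kb. Counting any annotated TSS within 1 kb gave 2, 3 and 1 clusters in the MCF10A-named parental, MCFDCIS-named parental and MCFDCIS-named D4 lists. The hexamer AGGTCA was in 0 parental clusters near members with the central 200 bp and in 3 and 4 with 1000 bp. Coregulators near a cluster numbered 1 in each parental list and 0 in the MCFDCIS-named D4 list with 25 kb, and 1 in the MCFDCIS-named parental list at or above the median score. Clock genes numbered 0 in the MCFDCIS-named D4 list at or above the median score, and lipid and vitamin targets 1 in the MCF10A-named D4 list with 25 kb. Wider windows admit more clusters by construction, and other causes were not tested. At 100 kb the members' share lay above that of all genes in the MCF10A-named parental and MCFDCIS-named D4 lists. At 25 kb it lay below in both, and in the latter also without clusters of 10 bp, where all genes gave 1.13%. Each of these lower counts was 0 of 44, and 1 gene would be 2.27%, above the share of all genes. No paired analysis was possible because the lists carry no replicate values, and for the same reason no replicate could be left out. Sequencing depth is unknown, so a gene without a cluster is a gene without a listed cluster.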

Other observations

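With the letters given above and the central 500 bp of each cluster set beside windows 5 kb to either side, the GRE was in 49 of 490 MCF10A-named parental clusters (10%, flanks 0.816%) and 58 of 651 MCFDCIS-named parental clusters (8.91%, flanks 0.922%). In D4 lists it was in 3 of 138 MCF10A-named clusters (2.17%, flanks 0%) and 8 of 99 MCFDCIS-named ones (8.08%, flanks 0.505%). Repeats of the looser hexamer RGKTCA, which receptors that pair with RXR bind, were in 4.49% (flanks 4.18%) and 5.22% (flanks 4.07%) of parental clusters. They were in 5.07% (flanks 1.81%) and 2.02% (flanks 4.55%) of D4 clusters, both in the same order of names. AGGTCA was in 31.8% and 30.6% of parental clusters (flanks 32.8% and 32.6%) and in 30.4% and 25.3% of D4 clusters (flanks 29.7% and 34.8%). Sites of other factors were also above flanks in parental lists, with AP-1 in 35.5% and 37.5% (flanks 15.5% and 15.6%) and GGAATG in 38.8% and 37.2% (flanks 24.3% and 26.4%). In D4 lists AP-1 was in 31.9% and 21.2% (flanks 18.8% and 15.2%) and GGAATG in 25.4% and 27.3% (flanks 26.8% and 23.7%). These shares were not tested here.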
